A study of Homo sapiens with 6 samples.

Results

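The binding sites described here were closely spaced regions of hnRNP A1 on human RNA, each with another A1 region within 500 nt on the same strand. The sites were measured by PAR-CLIP, in which a uridine analog fed to the cells (4-thiouridine) is crosslinked by UV to the bound protein and the protein is then immunoprecipitated with its RNA. Clusters (binding sites) came from 6 libraries of HEK293T cells, a line derived from human embryonic kidney, that had been transiently transfected with a myc-tagged protein and treated with 4-thiouridine. The RNA was recovered with an antibody against the tag. The A1 libraries held RNA from the monomeric band of the WT protein. The A1-HMW libraries held RNA from a heavier band of the same WT protein, which the labels call dimeric. The A1dm libraries held RNA from the monomeric band of a mutant with R75D and R88D, substitutions that break the salt bridges between the RNA recognition motifs. Each of the 3 groups had 2 replicates, described as independent experiments, and the tagged proteins were produced from plasmids in cells that also make their own hnRNP A1.

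The members were chosen by position in the A1 libraries. Clusters of both A1 replicates were merged where they overlapped by at least 1 nt on 1 strand, which gave 10574 regions. A region was called close where its nearest neighbour on that strand lay 1 to 500 nt away, counted from the last base of one to the first base of the other, so that adjoining bases are 1 nt apart. By this rule 382 regions were close and 10192 were isolated. The close regions formed 180 runs, chains in which each region lay within 500 nt of the next. The lists held 5805 and 8100 clusters for A1, 671 and 865 for A1-HMW and 232 and 596 for A1dm, replicate 1 before replicate 2 in each group. They held positions with no read numbers, so the depth behind a cluster is unknown, and a site without a cluster may have had too few reads to be called. Positions cannot show the expression of marker genes, and the cell line label was not checked in this way.

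hnRNP A1 is an abundant nuclear protein that regulates splicing, export and translation of RNA. It binds RNA through a pair of RNA recognition motifs, classically at UAGG-containing elements, and its glycine-rich tail takes part in contacts between proteins. On some substrates it is known to spread along the RNA from a strong site to neighbouring sequence, which is why the distance between its sites is of interest. Purine-rich words such as GAGGAA are also known as exonic splicing enhancers, the elements that SR proteins read.

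The sequences of 6 runs show what neighbouring regions had in common. They are from the GRCh37 reference (hg19), 5′ to 3′ on the bound strand, with the A1 regions in capitals and the gaps in lower case. PRRC2C, at chr1:171501849-171502020 on the plus strand, was shown because all 3 of its coding regions were in both A1 replicates. HOXD11, at chr2:176971022-176971169 on the plus strand, was shown because clusters of A1-HMW covered its 3 intronic regions. The CALD1 run, at chr7:134618466-134618668 on the plus strand, was the coding run with the longest repeated word. GPC5 (chr13:92314363-92314435, plus strand, intron), IGBP1 (chrX:69367300-69367368, plus strand, intron) and the intergenic pair at chr1:46644044-46644097 on the minus strand had the shortest gaps, outside exons, among pairs with both regions in both A1 replicates. Intergenic here means that no annotated gene lay on the bound strand, so a region antisense to a gene counts as intergenic.
PRRC2C: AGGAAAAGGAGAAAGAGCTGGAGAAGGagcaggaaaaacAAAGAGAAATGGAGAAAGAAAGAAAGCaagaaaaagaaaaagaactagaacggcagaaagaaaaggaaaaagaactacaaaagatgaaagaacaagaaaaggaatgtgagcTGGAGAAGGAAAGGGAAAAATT
HOXD11: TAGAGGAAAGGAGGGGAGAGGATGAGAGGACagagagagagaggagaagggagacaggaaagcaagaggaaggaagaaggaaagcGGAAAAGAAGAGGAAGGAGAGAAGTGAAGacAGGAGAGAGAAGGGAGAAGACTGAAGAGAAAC
CALD1: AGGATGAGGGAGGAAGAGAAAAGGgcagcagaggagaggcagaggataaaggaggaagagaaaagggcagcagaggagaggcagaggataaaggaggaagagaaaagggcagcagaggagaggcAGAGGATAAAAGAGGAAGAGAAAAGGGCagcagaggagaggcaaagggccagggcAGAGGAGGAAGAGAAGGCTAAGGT
GPC5: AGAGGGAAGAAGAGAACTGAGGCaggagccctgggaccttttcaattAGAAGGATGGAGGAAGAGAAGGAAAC
IGBP1: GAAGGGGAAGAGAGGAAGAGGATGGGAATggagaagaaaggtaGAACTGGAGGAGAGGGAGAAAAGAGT
Intergenic pair: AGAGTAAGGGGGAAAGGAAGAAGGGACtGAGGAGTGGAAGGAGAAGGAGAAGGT

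The longest run lay in the annotated 3′ UTR of EMC10, which encodes a subunit of the endoplasmic reticulum membrane protein complex. It held 9 regions over 2290 nt at chr19:50990762-50993051 on the plus strand. The 7 regions of at most 30 nt are printed in order along the transcript, to show that the members of 1 run were purine-rich without being copies of each other, with each cluster in capitals.
EMC10 region 1: AGATGGAAAAGGAAGAGAGAAT
EMC10 region 2: AGAGGAGAGAGGAGAGAAAAGAGGT
EMC10 region 3: GAGGAGAGGAGGGAGGAGAGAGTGT
EMC10 region 4: GAAGTGGAAAGAGAAGAAAAAAC
EMC10 region 5: AGTGAGAAAAAGGAGGGT
EMC10 region 7: AGGGAAGAAGGAAAGGAGAAAGGAAAAAAT
EMC10 region 8: GGAGAGAAAGAAGGGAGAGAGGATT

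Most runs were pairs. There were 166 runs of 2 regions, 12 of 3, 1 of 5 and 1 of 9, so that 14 runs of 3 or more held 50 of the close regions. The 202 distances between neighbours had a median of 131 nt, with quartiles of 46.25 and 300.75 nt and a range of 2 to 497 nt. From centre to centre the median was 157 nt. The distances were weighted to the short end, with 52 pairs (25.7%) within 50 nt and 89 pairs (44.1%) within 100 nt, against 9 pairs in the last 50 nt of the range. In 15 pairs (7.43%) the regions were no more than 10 nt apart. These distances describe the rule that chose the members, and no test was made on them. The median length was 25 nt for close regions and 25 nt for isolated regions. A run spanned a median of 204 nt, from 34 to 2290 nt.

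**Figure D1:**
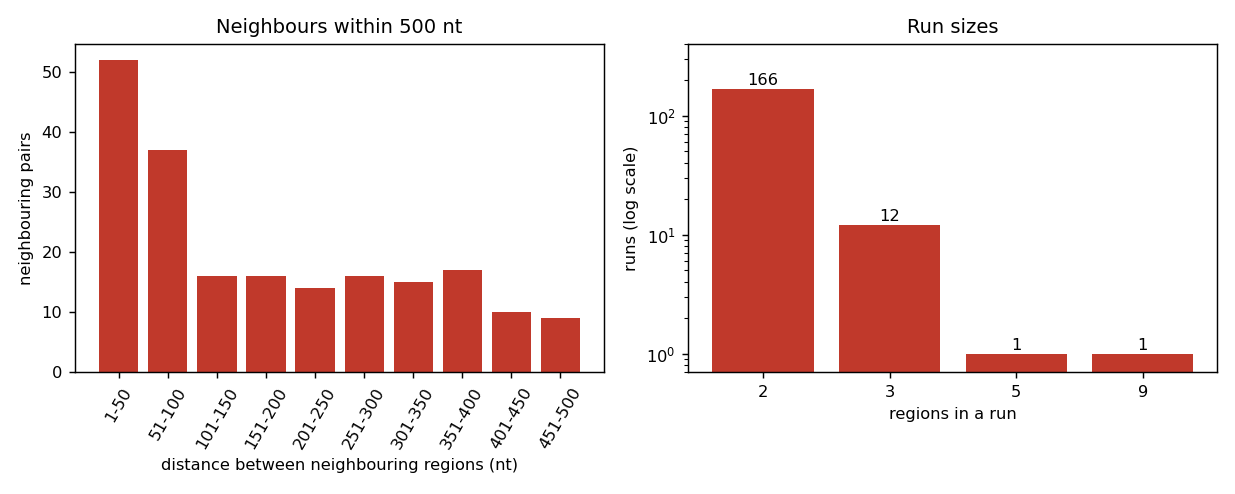
Left, number of neighbouring pairs of A1 regions (y axis) in 50 nt bins of the distance between them (x axis, nt). Right, number of runs (y axis, log scale) by the number of regions they hold. The 2 shortest bins hold 52 and 37 pairs and no later bin more than 17, and pairs make up 166 of the 180 runs.

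Next to the 500 nt limit the members and the excluded regions were as follows. Among pairs with both regions in both A1 replicates, the last 3 inside were an intergenic pair at chr10:102324398-102324855 (410 nt), NF1 (464 nt) and PURPL (497 nt), and the next 3 outside were TNRC6B (571 nt), VTI1A (572 nt) and SEMA6C (595 nt). NF1 encodes a GTPase-activating protein for Ras, and PURPL is a long noncoding RNA of the p53 pathway. TNRC6B is a protein of microRNA-guided silencing and VTI1A is a SNARE of vesicle fusion, and SEMA6C is a semaphorin. For isolated regions the nearest neighbour was a median of 39435 nt away, and the lowest distance was 505 nt.

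Of the close regions, 141 (36.9%) were in both A1 replicates, as were 3187 isolated regions (31.3%). Over all A1 regions the share was 31.5%. The rule used these same lists, so this is a description with no test. Taken by pair, both regions were in both A1 replicates in 26 of 202 pairs (12.9%). In 37 pairs (18.3%) 1 region came from replicate 1 alone and the other from replicate 2 alone, so the pair existed only after merging. A further 36 pairs came from replicate 2 alone and 4 from replicate 1 alone. The remaining pairs had 1 region in both replicates and the other in replicate 1 alone (41 pairs) or in replicate 2 alone (58 pairs). With the rule applied to regions of both A1 replicates alone, 53 were close. By run, 20 of 180 had all regions in both A1 replicates and 68 had none.

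Each A1 library was also taken alone, with the other as an independent check of its sites. In replicate 1, 147 of 5805 clusters (2.53%) had a neighbour within 500 nt, and 95 of these (64.6%) recurred in replicate 2, against 57.2% of the isolated clusters of replicate 1. The difference was 7.45 percentage points, with a 95% interval of -0.664 to 14.8. In replicate 2, 228 of 8100 clusters (2.81%) were close, and 106 (46.5%) recurred in replicate 1, against 40.9% of its isolated clusters, a difference of 5.55 points (-0.906 to 12.1). Both intervals included 0. Of the 75 close pairs of replicate 1, both clusters recurred in 28, 1 in 41 and neither in 6. The 122 close pairs of replicate 2 split into 28 with both, 58 with 1 and 36 with neither. Intervals of a difference between shares are Newcombe intervals, made from a pair of Wilson intervals. Regions of a run or of a gene are not independent, so they cover counting error only.

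Close regions lay in introns less often, and in exons of protein-coding genes more often, than isolated regions. Intergenic regions left aside, 194 of 269 close regions (72.1%) were intronic, against 6405 of 7606 isolated regions (84.2%), a difference of -12.1 percentage points (95% interval -17.8 to -7.00). In exons of protein-coding genes were 64 close regions (23.8%) and 1035 isolated regions (13.6%), a difference of 10.2 points (5.42 to 15.7). Exons of other genes held 11 close regions (4.09%), against 2.16% of isolated regions. Of all close regions 113 (29.6%) were intergenic, against 25.4% of isolated regions, a difference whose interval included 0 (4.21 points, -0.230 to 9.04).

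The exonic share was highest where neighbours were nearest. Among close regions with a neighbour within 50 nt, 30 of 74 (40.5%, Wilson 95% interval 30.1 to 51.9) were in exons of protein-coding genes. The share was 17.4% at 51 to 100 nt, 25.5% at 101 to 250 nt and 12.8% at 251 to 500 nt. Beyond the limit it was 16.5% at 501 to 1000 nt, 14.04% at 1001 to 10000 nt and 13.4% farther away. The EMC10 run alone gave 9 exonic regions. Without it, 26 of 70 close regions within 50 nt (37.1%) and 55 of 260 close regions in all (21.2%) were exonic.

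**Figure D2:**
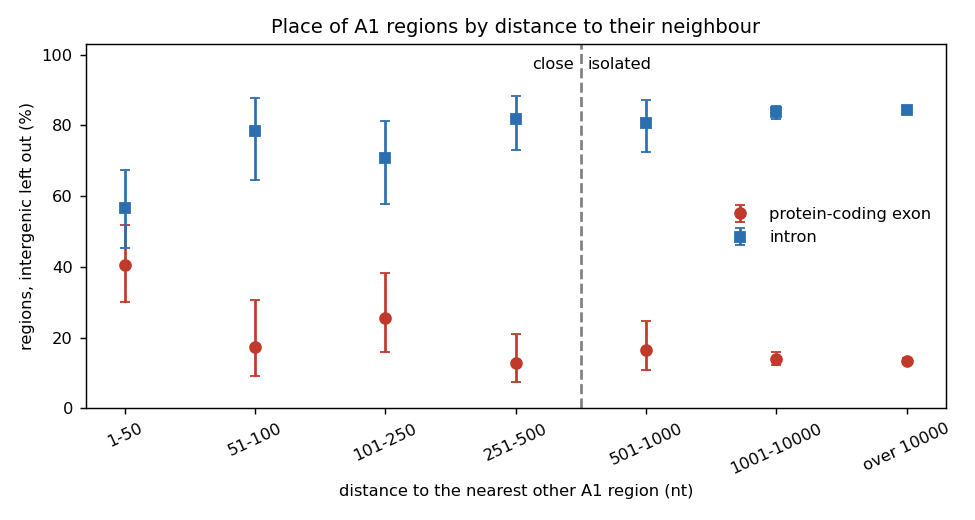
Share of A1 regions in exons of protein-coding genes (circles) and in introns (squares), in percent of regions that were not intergenic (y axis), by distance to the nearest other A1 region (x axis, nt). Bars are Wilson 95% intervals and the dashed line marks 500 nt. The exonic share is 40.5% within 50 nt and between 12.8% and 25.5% in the other bins.

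By pair, 95 of 202 neighbours lay in the same intron, 60 were both intergenic and 34 were both in exons of 1 protein-coding gene. Pairs in protein-coding exons were a median of 66.5 nt apart, pairs in introns 176.5 nt and intergenic pairs 117 nt. Within 50 nt were 15 of the 34 exonic pairs (44.1%), 21 of 96 intronic pairs (21.9%) and 15 of 60 intergenic pairs (25%). All but 1 run, 179 of 180, lay within 1 gene or were wholly intergenic, with no gene on the bound strand.

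Of the 64 close regions in protein-coding exons, 28 (43.8%) were in coding sequence, 25 (39.1%) in 3′ UTRs, 2 (3.13%) in 5′ UTRs and 9 in exons of noncoding transcripts of these genes. The 25 regions in 3′ UTRs included all 9 of the EMC10 run, and these shares were not recomputed without that run. Among the isolated exonic regions, coding sequence held 35.9%, 3′ UTRs 29.2% and 5′ UTRs 12.7%. The deficit in 5′ UTRs was -9.53 points (-12.7 to -1.73), from 2 regions, and the intervals for coding sequence and 3′ UTRs included 0. A UTR was called 5′ or 3′ by its side of the midpoint of the gene's coding span. UTRs of alternative transcripts may therefore be given to the wrong end. Intronic close regions lay in introns with a median length of 16883 nt, against 14480 nt for isolated regions, and a median of 2498 nt from the nearest exon, against 2703 nt. Within 300 nt of an exon were 10.3% of intronic close regions and 12.04% of isolated ones (-1.73 points, -5.36 to 3.41).

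The EMC10 run was uneven between the A1 replicates. Its second, sixth and eighth regions were in both A1 replicates, the seventh in replicate 1 alone and the other 5 in replicate 2 alone. A1-HMW replicate 2 had a cluster on the second and on the sixth region, and A1dm replicate 2 had one on the fifth. A1-HMW replicate 1 and A1dm replicate 1 had none there. Distances between its neighbours were 391, 24, 397, 439, 197, 26, 197 and 373 nt.

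The run of 5 regions was intergenic, at chr4:3492453-3492842 on the minus strand, with 390 nt from end to end. Of its regions 4 were in A1 replicate 2 alone and 1 in A1 replicate 1 alone, and no A1-HMW or A1dm library had a cluster on it. No region of this run recurred in the other A1 replicate.

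Coding sequence held 3 of the 12 triplets. In PRRC2C, a proline-rich coiled-coil protein linked to stress granules, the regions were 13 and 85 nt apart and all were in both A1 replicates. Both A1-HMW replicates had a cluster on the third region of PRRC2C, and A1dm replicate 2 had one in the gap between the second and the third, 93 to 116 nt from the start of the run. In CALD1, the actin and calmodulin binding protein caldesmon, the first and second regions were in both A1 replicates and the third was in A1 replicate 1 and A1-HMW replicate 2. The printed CALD1 window contained a repeated word of 84 nt, in copies that may overlap, the longest repeat among the 115 runs of up to 300 nt. In ZNF326, a zinc finger protein of the complex that couples transcription to splicing, no region was in both A1 replicates. A1dm replicate 2 had a cluster in the gap between its first and second regions, 44 to 67 nt from the start of the run.

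Introns held 4 further triplets in named genes. In HOXD11, a homeobox transcription factor, the regions were 55 and 3 nt apart. A1-HMW replicate 2 covered all 3 of them, the second and the third with 1 long cluster, and A1-HMW replicate 1 had a cluster on the first. DMXL1 (a WD-repeat protein; 9 and 97 nt), RNF169 (a ubiquitin-binding protein of DNA double-strand breaks; 329 and 81 nt) and MRTFA (a coactivator of serum response factor; 97 and 273 nt) had no cluster of A1-HMW or A1dm on any region. In RNF169 and MRTFA 2 of the 3 regions were in both A1 replicates, and in DMXL1 the second was. The remaining triplets were intergenic.

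**Figure D3:**
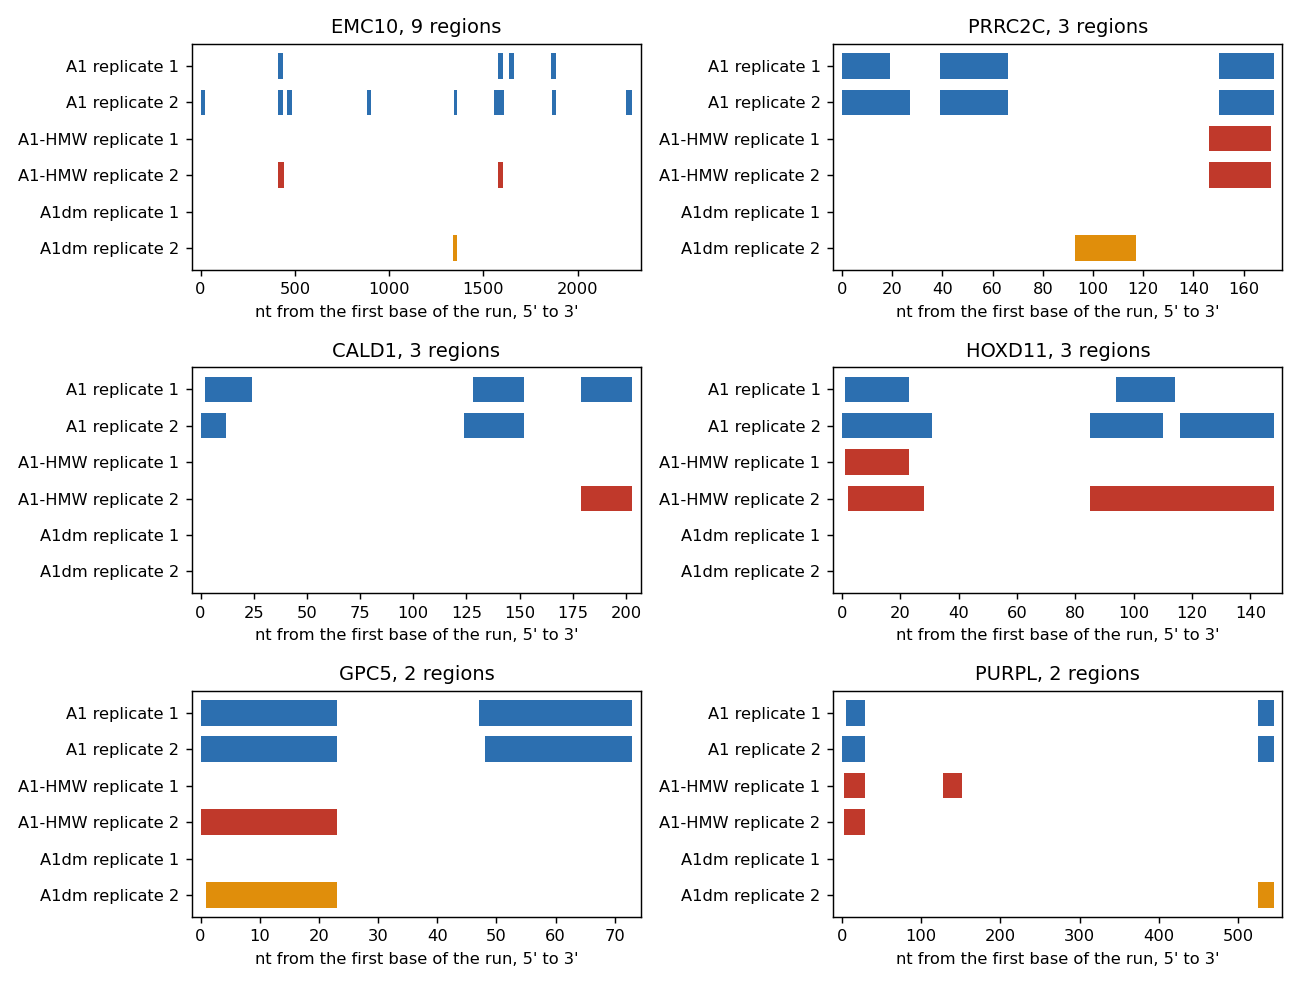
Clusters of each library in 6 named runs. The x axis is the position in nt from the first base of the run, 5′ to 3′, and each row is 1 library, A1 in blue, A1-HMW in red and A1dm in orange. EMC10 has clusters of A1-HMW on 2 of its 9 regions, PRRC2C on 1 of 3, and HOXD11 has A1-HMW clusters over all 3.

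The close regions fell in 128 genes, 112 of them protein-coding, out of 4760 genes with an A1 region. No gene had more than 1 run, and 8 genes had 3 regions or more. In 78 of the 128 genes there were isolated regions as well. FAF1, a cofactor of the VCP segregase, had 2 close regions among 10, which lay 342 nt apart and were in both A1 replicates. HNRNPA1 itself had 0 regions.

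Close regions in lists of genes by function were counted beside all A1 regions of each list. The list of hnRNPs and related RNA binding proteins had 4 close regions among 52 regions, in ELAVL1 and RBFOX2. SR and core spliceosome proteins had 2 of 31, in PRPF8, and translation factors 2 of 30, in EIF3L. DNA repair and checkpoint proteins had 4 of 75, in ATR and FANCB, and nuclear long noncoding RNAs 2 of 42, in NEAT1. Chromatin remodelers had 0 of 64, histone modifying enzymes 0 of 57 and known hnRNP A1 targets 0 of 9. Over all genes, 269 of 7873 regions were close. With at most 4 close regions in a list, no list was compared further.

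Among these genes the pairs differed in how they recurred. In ATR, the checkpoint kinase of replication stress, the regions were 37 nt apart in an intron, and the first along the transcript was in both A1 and both A1-HMW replicates, the second in A1 replicate 2 alone. The pair of ELAVL1, the AU-rich element binding protein HuR, was 75 nt apart in an intron, with 1 region in both A1 replicates and 1 in replicate 1 alone. RBFOX2, a splicing regulator, had the same pattern at 354 nt. PRPF8, the scaffold of the U5 snRNP, had its pair 304 nt apart in an intron, and FANCB, of the Fanconi anemia core complex, 175 nt apart, each with 1 region in both A1 replicates. In NEAT1, the RNA scaffold of paraspeckles, both regions were in A1 replicate 1 alone, 297 nt apart, as were those of EIF3L, a subunit of translation initiation factor 3, at 480 nt.

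The regions of A1-HMW and A1dm were not used to choose the members, so overlap with them could be compared between close and isolated regions. A1-HMW of either replicate had a cluster on 45 of 382 close regions (11.8%, Wilson 95% interval 8.92 to 15.4), against 908 of 10192 isolated regions (8.91%, 8.37 to 9.48) and 9.01% of all A1 regions. The difference was 2.87 percentage points, with an interval of -0.0434 to 6.53. A1dm had a cluster on 20 close regions (5.24%, 3.41 to 7.95), against 360 isolated regions (3.53%) and 3.59% of all A1 regions, a difference of 1.70 points (-0.156 to 4.44). Both intervals included 0. A cluster of A1-HMW or A1dm was on 57 close regions (14.9%), against 1125 isolated regions (11.04%) and 11.2% of all A1 regions. That difference was 3.88 points, with an interval above 0 (0.601 to 7.85). The planned comparisons took A1-HMW and A1dm separately, and this combined one was not examined under other settings. Among the 78 genes with close and isolated regions the A1-HMW difference turned to -3.25 points (-9.78 to 3.55), and with a limit of 250 nt the A1dm difference turned to -0.493 points (-2.07 to 2.44). Other settings moved them up. The A1-HMW difference was 4.33 points (1.70 to 7.46) with a limit of 1000 nt and 7.38 points (1.59 to 14.7) without A1 replicate 2. The A1dm difference was 4.49 points (0.673 to 10.3) without A1 replicate 2 and 3.88 points (0.889 to 8.47) among regions up to the median length.

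By library, A1-HMW replicate 1 had a cluster on 19 close regions (4.97%), against 4.45% of isolated regions. A1-HMW replicate 2 had one on 33 (8.64%), against 5.64%. A1dm replicate 1 had one on 4 (1.05%), against 1.30%, and A1dm replicate 2 on 16 (4.19%), against 2.48%. The shares were thus higher on close regions in 3 of 4 libraries and lower in A1dm replicate 1. The difference had an interval above 0 in A1-HMW replicate 2 (2.997 points, 0.531 to 6.27) and in A1dm replicate 2 (1.71 points, 0.0801 to 4.23), the larger list of each group. Over the 4 libraries the mean difference was 1.24 ± 1.42 points (SD, n = 4), and an exact two-sided sign-flip permutation test gave p = 0.25, where the smallest p that 4 libraries allow is 0.125. The test takes the 4 libraries as independent, but all were set against 1 set of A1 regions and those of the same replicate may share an experiment. The differences were 0.519 and -0.248 points in replicate 1 of A1-HMW and A1dm, and 2.997 and 1.71 points in replicate 2. As group means, the A1-HMW share was 6.81 ± 2.59% of close and 5.05 ± 0.839% of isolated regions (SD, n = 2), and the A1dm share was 2.62 ± 2.22% of close and 1.89 ± 0.839% of isolated regions (SD, n = 2).

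**Figure D4:**
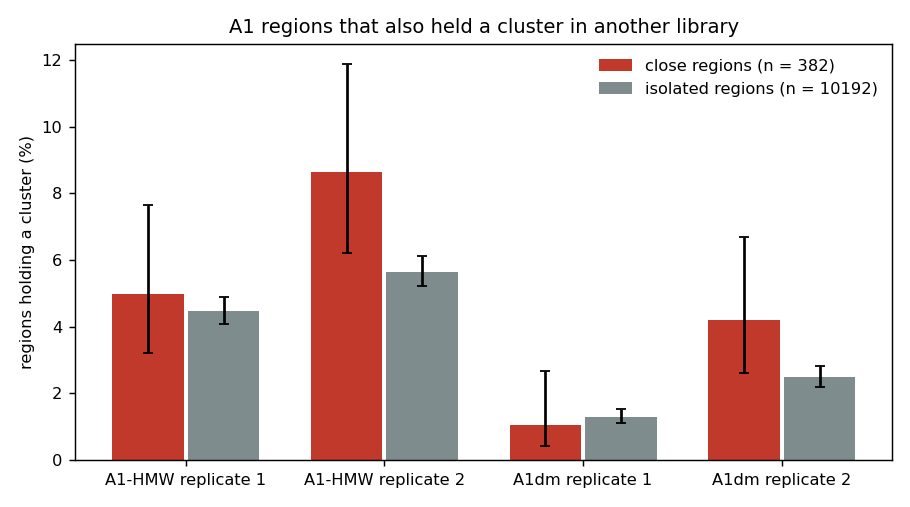
Share of A1 regions that also held a cluster in each A1-HMW or A1dm library (y axis, percent), for close regions (red, left of each pair) and isolated regions (grey, right). Bars are Wilson 95% intervals. The share is higher on close regions in both A1-HMW libraries and in A1dm replicate 2, and lower in A1dm replicate 1 (1.05% against 1.30%).

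Regions in both A1 replicates were held more often in either group than regions of 1 A1 replicate. They made up 36.9% of close and 31.3% of isolated regions, and whether this bears on the differences above was not tested. Within regions in both A1 replicates, A1-HMW held 24.8% of close and 19.8% of isolated regions (5.05 points, -1.50 to 12.9), and A1dm held 9.93% and 7.499% (2.43 points, -1.61 to 8.54). Within regions of 1 A1 replicate, A1-HMW held 4.15% of close and 3.97% of isolated regions, and A1dm held 2.49% and 1.73%. The share held in A1-HMW did not fall steadily with distance. It was 16.3% within 50 nt, 10.4% at 51 to 100 nt, 8.14% at 101 to 250 nt, 11.2% at 251 to 500 nt, 16.2% at 501 to 1000 nt, 12.3% at 1001 to 10000 nt and 7.91% beyond. For A1dm the shares within the limit ran from 1.49% at 51 to 100 nt to 9.60% at 251 to 500 nt.

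By place, A1-HMW held 12 of 64 close regions in protein-coding exons (18.8%), against 12.6% of isolated ones. It held 21 of 194 close intronic regions (10.8%), against 9.37%, and 9 of 113 close intergenic regions (7.96%), against 6.07%. A1dm held 7 close regions in protein-coding exons (10.9%), against 8.70%, 9 in introns (4.64%), against 3.28%, and 3 intergenic ones (2.65%), against 2.09%. All 6 intervals of these differences included 0.

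The clusters of A1-HMW and A1dm were also counted by pair, beside shares of 11.8% and 5.24% of single close regions held. A1-HMW had a cluster on 1 region of 42 pairs and on both regions of 3, with 157 pairs left without. A1dm had a cluster on 1 region of 21 pairs and on both of 0. The 3 pairs with both held in A1-HMW were 2 in the HOXD11 run and the RPL14 pair. In RPL14, which encodes a protein of the large ribosomal subunit, the regions were 26 nt apart in the 3′ UTR (chr3:40506912-40506982, plus strand), and A1-HMW replicate 1 had a cluster on the first and A1-HMW replicate 2 on the second. Of the 42 pairs with 1 region held in A1-HMW, it was the upstream one in 20 and the downstream one in 22, and for A1dm 8 and 13. Of the 180 runs, 41 had a region held in A1-HMW, 20 had one held in A1dm and 12 had both. By region, A1-HMW and A1dm both held 8 close regions (2.09%), against 1.40% of isolated regions and 1.43% of all A1 regions. The interval of that difference included 0 (0.691 points, -0.367 to 2.69). In 8 of the 12 runs with both groups A1-HMW and A1dm shared a region, and in 4 they were on different regions. Among those 4 was EMC10, a run of 9 regions, and these counts were not tested.

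PURPL was 1 of those 4. Its regions, 497 nt apart in a noncoding exon (chr5:27485427-27485971, plus strand), were both in both A1 replicates, and both A1-HMW replicates had a cluster on the first and A1dm replicate 2 on the second. A1-HMW replicate 1 had a further cluster in the gap, the only cluster of an A1-HMW library that lay in a gap and on no region. A1dm replicate 2 had 3 clusters in gaps alone and A1dm replicate 1 had 0. In GPC5, a glypican of the cell surface, A1-HMW replicate 2 and A1dm replicate 2 were both on the first region and neither on the second, 25 nt away. The pair of LRIF1, a nuclear protein that binds heterochromatin protein 1, had A1-HMW replicate 2 and A1dm replicate 2 on the same region, with 74 nt to the other. In IGBP1, a regulator of protein phosphatase 2A, A1-HMW replicate 2 had a cluster on the second region, 15 nt from the first. PARP6, an ADP-ribosyltransferase, had its pair 45 nt apart in both A1 replicates and in no other library.

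No close region was in all 6 libraries (0 of 382), against 8 of 10192 isolated regions (0.0785%) and 0.0757% of all A1 regions. The difference was -0.0785 points, with an interval that included 0 (-0.155 to 0.918). The close region in most libraries was in coding sequence of TRIM41 (chr5:180651470-180651491, plus strand), an E3 ubiquitin ligase, with clusters in all but A1dm replicate 1 and a neighbour 162 nt away that was in A1 replicate 1 alone. TRIM41 was picked out after its values had been seen. Clusters in 4 or more libraries were found on 14 close regions (3.66%) and 197 isolated regions (1.93%), a count that includes the A1 libraries the rule used.

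The close regions were 90.6 ± 4.75% purine (SD, n = 382), against 90.3 ± 5.35% (SD, n = 10186 isolated regions with a sequence), a difference that was not tested. A run of 12 purines was in 95.8% of close and 96.9% of isolated regions (-1.13 points, -3.65 to 0.507). A tandem repeat of at least 12 nt, with a unit of up to 6 nt, was in 7.33% and 7.26%. A single T, the base at which 4-thiouridine can crosslink, was found in 44.2% of close and 43.1% of isolated regions, and the last base was a pyrimidine in 87.2% and 90.7% (-3.56 points, -7.33 to -0.517). GAGGAA, searched on the bound strand alone, was in 106 close regions (27.7%), against 3367 isolated regions (33.1%) and 32.9% of all A1 regions, a difference of -5.31 points (-9.66 to -0.525). The interval included 0 in 6 of 12 alternatives, among them a limit of 250 nt (-1.78 points), the first region of each run alone (-4.72 points) and intronic regions alone (-3.76 points).

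The sequence around close regions was on average richer in purines than that around isolated ones and poorer than the regions themselves, with spreads wider than the difference between flanks, which was not tested. Gaps of 10 to 50 nt averaged 70.1 ± 16.6% purine (SD, n = 37) and gaps over 50 nt 63.4 ± 13.96% (SD, n = 150). The 50 nt on either outer side of the runs averaged 61.1 ± 14.7% (SD, n = 360), against 56.4 ± 12.2% beside isolated regions (SD, n = 20372). A run of 12 purines was in 20% of these outer flanks, against 11.2% of the flanks of isolated regions. The spread was wide. In the printed windows the HOXD11 gap of 54 nt was 94.4% purine without a single T, and the GPC5 gap of 24 nt was 45.8% purine. In the ATR pair the 36 nt gap was 91.7% purine and also had 0 T, so that no base there could carry a T-to-C substitution. Of the 115 runs of up to 300 nt, 51 were at least 80% purine from end to end, and the median was 77.5%.

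**Figure D5:**
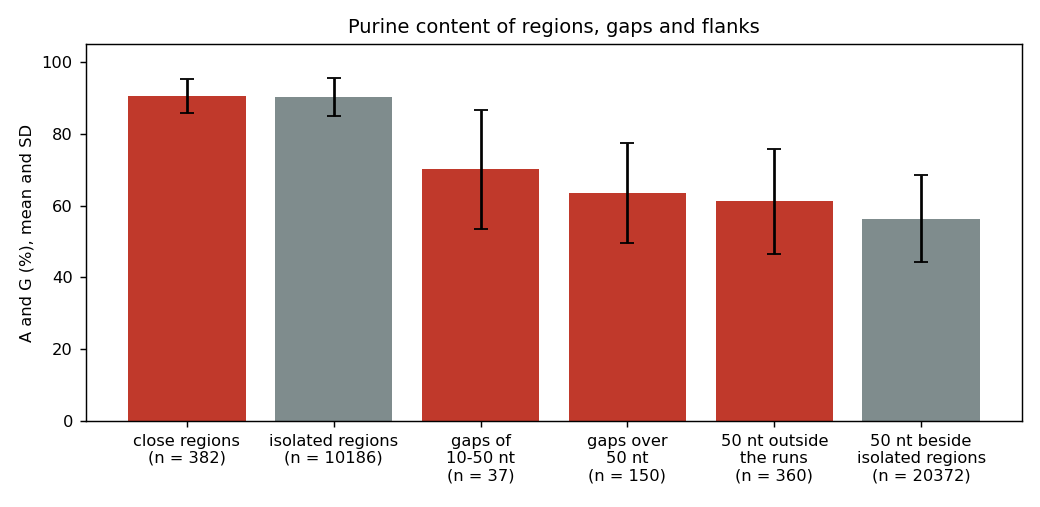
Purine content (y axis, percent A and G, mean with SD) of close regions, isolated regions, gaps between close regions of 10 to 50 nt and of over 50 nt, the 50 nt outside runs and the 50 nt beside isolated regions. Values belonging to close regions are red and those belonging to isolated regions grey. Regions stand at 90.6% and 90.3%, gaps at 70.1% and 63.4%, and flanks at 61.1% and 56.4%.

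A word of at least 8 nt was common to both regions in 53 of the 141 neighbouring pairs that lay in 1 gene (37.6%), against 33.7% of 2885 pairs of consecutive isolated regions of 1 gene, and a word of at least 12 nt in 6 (4.26%), against 1.98%. The median longest shared word was 7 nt in these neighbouring pairs and 7 nt in the isolated pairs. Over all 202 neighbouring pairs, intergenic ones included, 86 (42.6%) shared a word of at least 8 nt and 13 (6.44%) one of at least 12 nt. In 26 of the 115 short runs a word of 12 nt or more occurred more than once from end to end, and in 6 a word of 20 nt or more. These shares are descriptions, with no test of their differences, since pairs of 1 run are not independent.

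A1-HMW and A1dm clusters had few close neighbours of their own. Within 500 nt of another cluster of the same library were 4 of 671 and 8 of 865 clusters in A1-HMW replicates 1 and 2, and 0 of 232 and 10 of 596 in A1dm replicates 1 and 2. For A1dm replicate 1 the count of 0 allows a share of up to 1.63% (Wilson 95% limit). These lists were shorter than those of A1, and the number of neighbours within a fixed distance depends on the number of sites, so these shares were not compared with those of A1.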

How the data were processed

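PAR-CLIP clusters of A1, A1-HMW and A1dm from HEK293T cells (2 libraries each) were analyzed. As the methods describe, the authors trimmed reads with BBduk, took out ribosomal RNA and aligned with STAR. They examined T-to-C substitutions with wavClusteR and made their peaks with PARalyzer. The submitters' processing notes name Bowtie and hg19. The deposited lists were wavClusteR clusters annotated by HOMER, not the PARalyzer peaks of the paper, and tool versions are not given in the sources used here. The deposited score was 0 in 100% of lines, so no read depth was at hand to weigh a cluster. Other deposited columns used were positions, strand and, as an alternative, the authors' annotation. The gene of the nearest start was not used.

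The listed start was 1 nt above that of the cluster's identifier in 100% of lines, and the identifier's start was used. Regions were placed by strand with GENCODE release 44 lifted to GRCh37, with exons given priority over introns and protein-coding genes over the rest. Genes on the opposite strand were not considered, so regions antisense to a gene counted as intergenic. A region was held in a library where a cluster overlapped it by 1 nt or more. Shares have Wilson 95% intervals, differences Newcombe intervals, and a difference counted where its interval left out 0. Python 3.11.15, numpy 2.4.6, scipy 1.17.1, pysam 0.24.0 and samtools 1.23.1 were used, and the scripts were tested on simulated data. Genes were named for the runs with most regions, most regions in A1-HMW or A1dm, or the shortest distances, for membership of the lists, and for lying next to the limit. The members and lists were chosen with earlier results of these data known. Alternatives were other starts, limits, strata, annotation and libraries left out. The 2 mitochondrial regions stayed in the counts and shares, and only their base sequence was not used.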

Additional observations from a re-analysis of the deposited data

How the results depend on the processing

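Using only regions of both A1 replicates gave 53 close regions in place of 382, and single A1 replicates gave 147 to 228. For A1-HMW, the difference from isolated regions (2.87 points) became 4.33 points with a limit of 1000 nt, 3.87 against isolated regions over 10000 nt from the next and 4.41 among regions up to the median length, each with an interval above 0. It turned to -3.25 points within genes that had close and isolated regions. With a library left out it ranged from 0.519 to 7.38, the highest without A1 replicate 2; its interval lay above 0 there and without A1-HMW replicate 1 (2.997). For A1dm (1.70 points) it turned to -0.493 with a limit of 250 nt, -0.535 among regions over the median length and -0.248 without A1dm replicate 2. It was 2.04 against regions over 10000 nt from the next and 3.88 up to the median length, with intervals above 0, and -0.248 to 4.49 with a library left out, above 0 without A1 replicate 2 (4.49) and without A1dm replicate 1 (1.71). The intronic deficit kept its direction and call in 14 alternatives (-19.2 to -6.36 points). The GAGGAA difference was negative in 12, but its interval included 0 with a limit of 250 nt (-1.78), regions of both A1 replicates only (-4.86), the first region of each run (-4.72), without the runs of 5 and 9 regions (-4.79), and intronic regions (-3.76). Without A1 replicate 1 it was -5.58 with an interval that included 0, and without A1 replicate 2 -7.88. Leaving out those 2 runs, the intronic regions for GAGGAA and the split of the intronic share at 100 nt were chosen after seeing the data. The causes of these changes were not tested. No paired analysis was possible because no group of libraries was tested against another; the sign-flip test already used the difference within each library. Without read numbers, depth cannot be weighed.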
